A study of Sus scrofa with 8 samples.

Results

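In pig lung, 57 array probes separated Tibetan from Duroc pigs at both altitudes by more than 2 on the log2 scale, of the 34406 non-control probes detected (flagged as well above background) on 1 or more of the 8 arrays. A probe was included when, in the deposited log2 values, the lowest of the 4 arrays of one breed lay more than 2 log2 above the highest of the 4 arrays of the other, so no array of one breed came near any array of the other. Of the 57, 23 were higher in the Tibetan pigs and 34 in the Duroc pigs. A further 3 probes met the same criterion but belong to AGR2 and BPIFA1 and were left out by name, as BPIFB1 would have been. The probes were chosen on their measured breed difference, which is therefore described here and not tested; altitude is tested. A gene symbol was found for 16 of the 57 probes, and the other 41 are called by their probe identifier.

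The lungs came from 4 groups of female pigs, all sampled at 6 months of age, with 2 arrays in each. Tibetan pigs, a breed native to the Tibetan plateau, had either stayed at 3500 m (TH) or been moved to 40 m at 1 month of age (TL). Duroc pigs, a commercial lowland breed, had either stayed at 40 m (DL) or been moved to 3500 m at 1 month (DH). Being moved and living away from the altitude of origin cannot be told apart in this design, nor can breed and farm of origin. The paper names a single farm at each altitude, so altitude and the other conditions of the site cannot be told apart either. Each array carried Cy3-labelled cRNA from whole lung, and in whole tissue fewer cells of a type and less RNA per cell cannot be told apart. The authors hybridised each pig singly, so the arrays of a group are different pigs. The p-values below set differences between groups only against the spread of arrays within groups.

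Lung surfactant and alveolar markers were well above background on all arrays: the summed signal of the 5 alveolar type II probes (SFTPA1, SFTPB, SFTPC and SFTPD) ranged from 19.80 to 20.21 log2. The TL arrays stood apart from the rest, with a median raw signal of 324 and 333.5 against 207.5 to 230 on the other 6 arrays. TH and DL shared one slide and DH and TL the other, so the breed by altitude interaction and the slide cannot be told apart, and each altitude difference within a breed runs across the slides. The altitude effect averaged over the breeds is balanced over the slides.

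Much of what a lung transcribes in its airways serves mucus and defence. Goblet and gland cells secrete mucins together with proteins such as CLCA1 and DMBT1, epithelial and myeloid cells release chemokines that draw in leukocytes, and antigen-presenting cells display peptides on major histocompatibility complex (MHC) class II molecules, which are among the most polymorphic proteins of mammals. Enzymes of the cytochrome P450 family oxidise foreign chemicals, and CYP1A1 is the classic target gene of the aryl hydrocarbon receptor. The probes with gene symbols fall in these classes and in several others, and are described in that order on the log2 scale of the normalized scanner signal. Levels of different probes cannot be compared with one another.

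**Figure D1:**
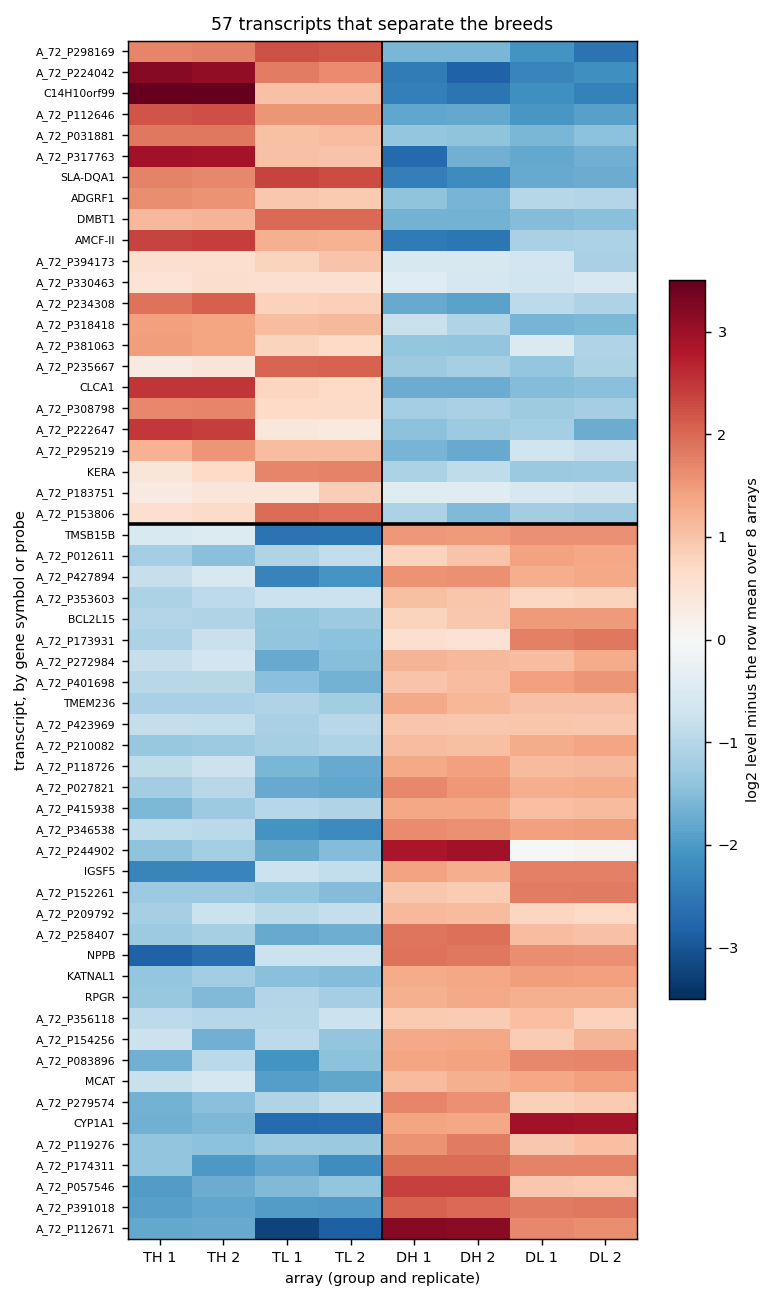
The 57 probes (rows) on the 8 arrays (columns), with colour showing the log2 level minus that probe's mean over the 8 arrays. The upper 23 rows are the probes higher in Tibetan pigs and the lower 34 those higher in Duroc pigs, each in the order of the deposited gap between the breeds, and the colour changes at the line between TL and DH in every row.

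The gap between the nearest arrays of the breeds in the deposited values had a median of 2.54 log2 and reached 4.83 for A_72_P112671, higher in Duroc pigs, and 4.70 for A_72_P298169, higher in Tibetan pigs. On the normalized scanner signal used below the same gaps were smaller, with a median of 1.97 and a range from 0.73 to 3.79, and 28 of the 57 exceeded 2. On that scale the breeds did not overlap in all 57, which the choice of probes fixes; among all 34406 probes they did not overlap in 7.2% with Tibetan pigs higher and in 13.4% with Duroc pigs higher. The arrays of a group lay close together, with a median SD of 0.05 log2 over the 57 probes and their 4 groups. Just inside the criterion were A_72_P153806 at a deposited gap of 2.02, A_72_P183751 at 2.03, TMSB15B at 2.05, A_72_P012611 at 2.06 and KERA at 2.07. Just outside it were COL11A1 at 1.99, A_72_P249207 at 1.98, MATN1 at 1.97, UCP3 at 1.93 and GNRH1 at 1.93.

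For many of the probes the contrast was between a detected and an undetected transcript. Of the 23 probes higher in Tibetan pigs, 15 were not well above background on any Duroc array, 4 were well above it on all 4 Duroc arrays and 4 on some. Of the 34 higher in Duroc pigs, 11 were not well above background on any Tibetan array, 13 were so on all 4 and 10 on some. In the higher breed 21 of the 23 and 33 of the 34 were well above background on all 4 arrays. For a group in which neither array was well above background only a lower bound of the fold can be given, computed against the weakest signal that counted as well above background on each array or the probe's own signal where that was higher. The bounds for probes higher in Tibetan pigs had a median of at least 5.87-fold at 3500 m and at least 3.38-fold at 40 m, over 16 probes at each altitude. Those for probes higher in Duroc pigs had a median of at least 5.65-fold over 14 probes at 3500 m and at least 4.22-fold over 13 probes at 40 m.

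Genes known for secreted products of mucosal epithelia made up 3 of the 7 named genes higher in Tibetan pigs. CLCA1, a secreted metalloprotease that goblet cells release with mucus, read 16.36 and 16.38 in TH, 14.62 and 14.58 in TL, 12.13 and 12.13 in DH and 12.36 and 12.40 in DL. TH was the highest group and the DH and DL arrays the lowest, with no overlap between any of the 4 groups. Tibetan pigs had 18.9 times the Duroc signal at 3500 m and 4.67 times at 40 m. In Tibetan pigs CLCA1 was higher at 3500 m than at 40 m by 1.77 ± 0.04 log2 (limma estimate ± SE, FDR 1.59e-06). The difference in Duroc pigs was -0.25 ± 0.04 (FDR 0.00348), not past the FDR threshold of 0.0001 that was used for every call, and the interaction was 2.02 ± 0.05 (FDR 3.95e-06). A second CLCA1 probe, outside the 57, also had the breeds apart, with Tibetan pigs 2.75 log2 above Duroc pigs on average against 3.23 for the first.

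DMBT1, a mucosal scavenger receptor protein that binds bacteria and surfactant proteins, moved the other way with altitude. It read 10.96 and 11.00 in TH, 11.79 and 11.80 in TL, 8.18 and 8.16 in DH and 8.30 and 8.37 in DL. The TL arrays were the highest, and the Duroc arrays lay within 0.21 log2 of each other. DMBT1 was lower at 3500 m by -0.49 ± 0.03 over both breeds (FDR 5.61e-05) and by -0.82 ± 0.04 in Tibetan pigs (FDR 1.86e-05).

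C14H10orf99, a small secreted peptide of mucosal and skin epithelium that acts as a ligand of the receptor GPR15, had one of the widest breed contrasts. Its signal was 10.60 and 10.69 in TH, 7.95 and 7.97 in TL, 4.55 and 4.37 in DH and 4.79 and 4.56 in DL. It was well above background on all Tibetan arrays and on no Duroc array, so Tibetan pigs exceeded Duroc pigs at least 52.5-fold at 3500 m and at least 6.32-fold at 40 m. Within the Tibetan pigs it was higher at 3500 m by 2.69 ± 0.10 (FDR 6.39e-06), the steepest rise with altitude in that breed among the 57 probes. Its altitude effect over both breeds was 1.24 ± 0.07 (FDR 4.98e-05) and its interaction 2.90 ± 0.14 (FDR 2.25e-05), both of which include Duroc values that were not well above background.

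Markers of airway secretory cells were also higher in Tibetan pigs, but they did not move together with altitude. Of the 8 tested probes for 5 such genes, 3 (1 for AGR2 and 2 for BPIFA1) are those that met the criterion and were left out by name. The other 5, for BPIFB1, LTF and PIGR, were all higher in Tibetan pigs without overlap, beside 7.2% of all probes. The summed signal of the 8 was 17.91 to 17.94 log2 in TH, 18.06 to 18.09 in TL, 16.40 to 16.44 in DH and 16.06 to 16.09 in DL. This sum includes the 3 that met the criterion, so its breed difference is partly fixed by their choice. Its largest part was 1 PIGR probe, at 17.27 ± 0.04, 17.29 ± 0.06, 16.13 ± 0.04 and 15.77 ± 0.02 in TH, TL, DH and DL (mean ± SD, n = 2). The part of secretory cell number in the levels of CLCA1, DMBT1 and C14H10orf99 was not tested. None of the 10 ciliated cell markers was matched to a tested probe.

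Among genes of immune defence, AMCF-II, a neutrophil-attracting CXC chemokine first found in alveolar macrophages, opposed altitude in the breeds. It read 10.62 and 10.67 in TH, 9.50 and 9.47 in TL, 5.78 and 5.73 in DH and 7.13 and 7.13 in DL. Each group stood clear of the others, and TH and DH, the groups at 3500 m, were the highest and the lowest. The breed contrast was at least 29.6-fold at 3500 m, where neither DH array was well above background, and 5.12-fold at 40 m. AMCF-II rose at 3500 m in Tibetan pigs by 1.16 ± 0.04 (FDR 5.31e-06) and was lower at 3500 m in Duroc pigs by -1.38 ± 0.04 (FDR 3.77e-05), and the interaction was 2.53 ± 0.06 (FDR 2.81e-06). With the breeds averaged the altitude effect was -0.11 ± 0.03 (FDR 0.0170). TH and DL, the higher group of each breed, shared a slide, so the opposite altitude differences and the slide cannot be told apart.

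The other chemokines were mixed in both breed and altitude. Of 35 other tested probes of the chemokine and receptor list, 5 were higher in Tibetan and 7 in Duroc pigs without overlap. The shares over all tested probes were 7.2% and 13.4%. Over all 36 probes of the list the median Tibetan minus Duroc difference was -0.06 log2. The interaction passed in 6 of the 36 above 0, AMCF-II included, and in 6 below 0, beside 9.24% and 11.9% of all probes. The probes for CXCL14, a chemokine of epithelia, opposed altitude in the breeds as AMCF-II did, and were likewise higher in TH and DL, which shared a slide. The first had differences of 1.40 in Tibetan pigs (FDR 4.94e-06) and -1.37 in Duroc pigs (FDR 4.59e-05). The second had 0.77 (FDR 0.000212, not past the threshold) and -1.68 (FDR 6.71e-05). CXCL2, a neutrophil chemokine of the same family, was among the 5, at 14.06 ± 0.06, 15.73 ± 0.12, 13.52 ± 0.02 and 13.23 ± 0.01 in TH, TL, DH and DL (mean ± SD, n = 2). The 3 tested neutrophil marker probes summed to 14.61 to 14.67 log2 in TH, 13.38 to 13.41 in TL, 12.27 to 12.28 in DH and 12.66 to 12.69 in DL, but the 3 differed among themselves. NPG4 and PR39 were higher in TL than in TH, and PGLYRP1, at 14.29 ± 0.05, 10.61 ± 0.02, 11.36 ± 0.00 and 10.93 ± 0.01 in TH, TL, DH and DL (mean ± SD, n = 2), was highest in TH and lowest in TL. The part of neutrophil number in the AMCF-II level was not tested.

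SLA-DQA1 encodes the alpha chain of the swine MHC class II DQ molecule. The probe that met the criterion read 14.87 and 14.81 in TH, 15.48 and 15.42 in TL, 10.74 and 10.92 in DH and 11.37 and 11.39 in DL. It was well above background on all 8 arrays, with Tibetan pigs 16.1 times higher at 3500 m and 16.8 times at 40 m. Both breeds were slightly lower at 3500 m, Tibetan pigs by -0.61 ± 0.07 (FDR 0.000515) and Duroc pigs by -0.55 ± 0.07 (FDR 0.00167), neither past the threshold.

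Other probes of SLA-DQA1 did not show this difference to the same extent. One that shares its target sequence had the breeds apart by 1.71 log2 on average against 4.04 for the first. The 3 remaining SLA-DQA1 probes, designed to RefSeq transcripts, overlapped between the breeds, with mean differences of 0.31, 0.21 and -0.06 log2. In the list of MHC and antigen presentation genes, 2 of 34 other tested probes were higher in Tibetan and 2 in Duroc pigs without overlap. The shares over all tested probes were 7.2% and 13.4%. The median difference over all 35 of the list was -0.12. Which exons or alleles each probe binds was not analysed here.

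**Figure D2:**
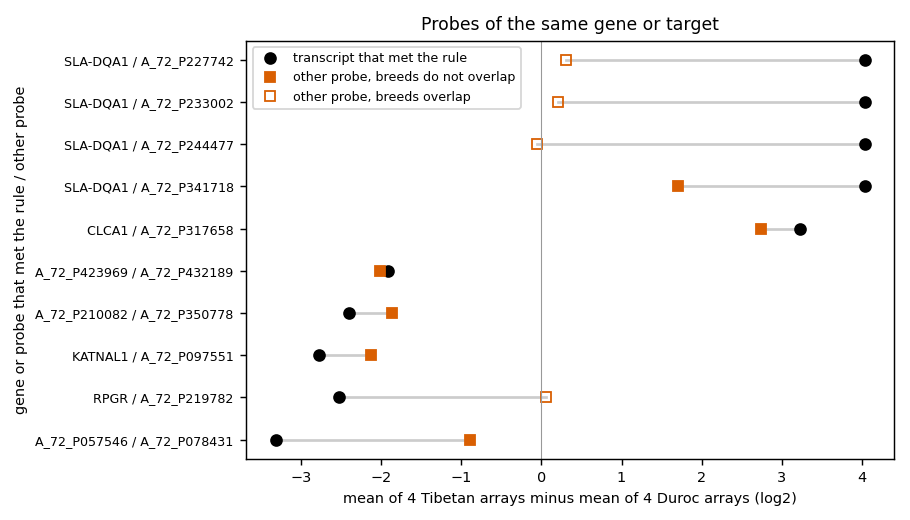
Mean of the 4 Tibetan arrays minus mean of the 4 Duroc arrays (log2) for each probe that met the criterion (black circles) and for other probes of the same gene or target (orange squares, open where the breeds overlap). The squares for SLA-DQA1 and RPGR reach values near 0, while those for CLCA1, KATNAL1, A_72_P423969 and A_72_P210082 lie near the circles.

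The remaining named genes of the Tibetan side were faint. ADGRF1, an adhesion G protein-coupled receptor of epithelia, read 7.68 and 7.62 in TH, 6.98 and 6.95 in TL, 4.65 and 4.42 in DH and 5.04 and 5.03 in DL. It was not well above background in Duroc pigs, which puts the breed contrast at least 6.38-fold at 3500 m and at least 3.16-fold at 40 m. KERA, keratocan, a small leucine-rich proteoglycan best known from the cornea, read 6.18 and 6.46 in TH, 7.47 and 7.50 in TL, 4.65 and 4.87 in DH and 4.45 and 4.50 in DL. TL was highest, and again no Duroc array was well above background.

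MATN1 and COL11A1, both matrix genes of cartilage, lay just outside the criterion in the same direction as KERA. MATN1 was at 10.63 ± 0.11, 11.79 ± 0.09, 5.64 ± 0.02 and 8.71 ± 0.02 in TH, TL, DH and DL (mean ± SD, n = 2). A cartilage marker list was added after these values were seen, with 5 tested probes for 3 genes. Besides MATN1 and COL11A1, which prompted it, 2 of the 3 ACAN probes were higher in Tibetan pigs without overlap, beside 7.2% of all probes. COL11A1 was well above background on 3 of the 8 arrays and one of those ACAN probes on 2. The summed signal of the 5 was 11.84 to 11.97 log2 in TH, 12.88 to 13.02 in TL, 9.11 to 9.25 in DH and 10.52 to 10.56 in DL. The part of airway cartilage in the KERA level was not tested.

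Of the 9 named genes higher in Duroc pigs, CYP1A1 had the widest deposited gap, 3.09. It read 9.22 and 9.33 in TH, 8.21 and 8.25 in TL, 12.30 and 12.28 in DH and 13.86 and 13.84 in DL. All 8 arrays were well above background and all 4 groups stood apart, with the pigs kept at 40 m, DL and TL, the highest and the lowest. Duroc pigs exceeded Tibetan pigs 8.06-fold at 3500 m and 49.1-fold at 40 m. CYP1A1 was higher at 3500 m in Tibetan pigs by 1.05 ± 0.05 (FDR 1.46e-05) and lower at 3500 m in Duroc pigs by -1.56 ± 0.05 (FDR 4.06e-05), with an interaction of 2.61 ± 0.07 (FDR 3.88e-06).

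No other probe in the list of xenobiotic and aldehyde metabolism met the criterion. Of its 33 other probes, 6 were higher in Tibetan and 4 in Duroc pigs without overlap, beside 7.2% and 13.4% of all tested probes. The median over all 34 of the list was 0.25 log2 toward Tibetan pigs. The aldo-keto reductase AKR1C1 had 2 of its 3 probes higher in Duroc pigs, the further apart at 9.92 ± 0.02, 10.44 ± 0.01, 11.36 ± 0.03 and 11.88 ± 0.01 in TH, TL, DH and DL (mean ± SD, n = 2). ADH1C, an alcohol dehydrogenase, was at 14.04 ± 0.03, 16.43 ± 0.10, 10.71 ± 0.01 and 14.21 ± 0.01 in the same order (n = 2). At 3500 m its breed contrast was wider than that of CYP1A1 and in the other direction, but DL exceeded TH, so the breeds overlapped. NQO1, another gene that responds to the aryl hydrocarbon receptor, overlapped between the breeds. CYP1A1 was named for 1 probe here, so no second probe bears on it.

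NPPB encodes B-type natriuretic peptide, a hormone of heart muscle that relaxes vessels and promotes salt excretion. It read 4.61 and 4.81 in TH, 6.68 and 6.69 in TL, 9.35 and 9.27 in DH and 9.06 and 9.05 in DL. Neither TH array was well above background, and the TL arrays lay between TH and the Duroc arrays. Duroc pigs exceeded Tibetan pigs at least 14.7-fold at 3500 m and 5.17-fold at 40 m. In Tibetan pigs the signal was at least 2.39-fold lower at 3500 m than at 40 m, an estimate of -1.97 ± 0.07 log2 (FDR 6.03e-06), while the Duroc difference was 0.26 ± 0.07 (FDR 0.0299). The interaction was -2.23 ± 0.10 (FDR 1.78e-05) and the altitude effect over both breeds -0.86 ± 0.05 (FDR 5.65e-05).

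In a heart muscle list added after the NPPB values were seen, none of 8 tested probes for 4 genes separated the breeds. Their summed signal was 13.17 to 13.22 log2 in TH, 15.48 to 15.50 in TL, 13.37 to 13.42 in DH and 13.37 to 13.40 in DL. Within Tibetan pigs the list was split. The 4 probes of TNNI3, cardiac troponin I, moved in the same direction as NPPB, lower at 3500 m by between -1.79 and -3.06 log2. These 4 and MYL2, at -1.86, passed the threshold, beside 14.7% of all probes lower at 3500 m. MYL2 was well above background on only 2 of the 8 arrays, with a TH mean of 4.86, so its difference rests partly on undetected signal. SLN went the other way, at 0.69 and 0.53, and PLN changed by 0.06, none past the threshold. The part of heart muscle in the NPPB level was not tested. The skeletal muscle list gave 3 of 25 probes higher in Tibetan and 6 in Duroc pigs without overlap, with a median difference of -0.05. Of all tested probes, 7.2% were higher in Tibetan and 13.4% in Duroc pigs without overlap.

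IGSF5, a junctional adhesion molecule of epithelial tight junctions, read 4.61 and 4.60 in TH, 6.16 and 6.05 in TL, 8.33 and 8.20 in DH and 8.69 and 8.68 in DL. Like NPPB it was higher in TL than in TH, where neither array rose well above background. The signal was at least 1.60-fold lower in TH than in TL (estimate -1.50 ± 0.06, FDR 9.30e-06). Its altitude effect over both breeds was -0.96 ± 0.04 (FDR 2.59e-05).

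TMSB15B belongs to the beta-thymosins, which bind monomeric actin. It read 9.75 and 9.82 in TH, 7.71 and 7.74 in TL, 11.81 and 11.79 in DH and 11.89 and 11.90 in DL. The Duroc arrays lay within 0.11 log2 of one another, while the Tibetan groups differed by 2.06 ± 0.04 (FDR 1.34e-06), higher at 3500 m. Duroc pigs were 4.04 times higher at 3500 m and 18.0 times at 40 m, and the interaction was 2.16 ± 0.06 (FDR 3.67e-06).

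KATNAL1, a subunit of the microtubule-severing enzyme katanin, changed little with altitude. It read 8.02 and 8.16 in TH, 7.90 and 7.84 in TL, 10.68 and 10.72 in DH and 10.83 and 10.80 in DL, a breed contrast of 6.09-fold at 3500 m and 7.69-fold at 40 m. A second KATNAL1 probe kept the breeds apart, with a mean Tibetan minus Duroc difference of -2.12 log2 against -2.78 for the first. RPGR, a regulator of transport into cilia that is known from inherited retinal degeneration, read 5.98 and 5.76 in TH, 6.28 and 6.12 in TL, 8.54 and 8.62 in DH and 8.55 and 8.55 in DL. A second RPGR probe, to another transcript model, overlapped between the breeds with a mean difference of 0.05, so the breed contrast of RPGR rests on 1 of its 2 probes.

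Among the remaining named genes of the Duroc side, MCAT, the mitochondrial malonyl transferase of fatty acid synthesis, was not well above background on any Tibetan array, and Duroc pigs exceeded Tibetan pigs at least 3.37-fold at 3500 m and at least 5.66-fold at 40 m. Its Tibetan difference of 1.18 ± 0.08 (FDR 5.55e-05) passed the threshold on signals that were not well above background. BCL2L15, a member of the BCL2 family of cell death regulators, was at 6.39 ± 0.01 in TH and 6.10 ± 0.06 in TL, against 8.28 ± 0.11 in DH and 8.91 ± 0.00 in DL (mean ± SD, n = 2). TMEM236, a transmembrane protein, was at 8.62 ± 0.01 in TH and 8.62 ± 0.10 in TL, against 11.00 ± 0.12 in DH and 10.77 ± 0.01 in DL (n = 2). Neither BCL2L15 nor TMEM236 passed the threshold for altitude or interaction.

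**Figure D3:**
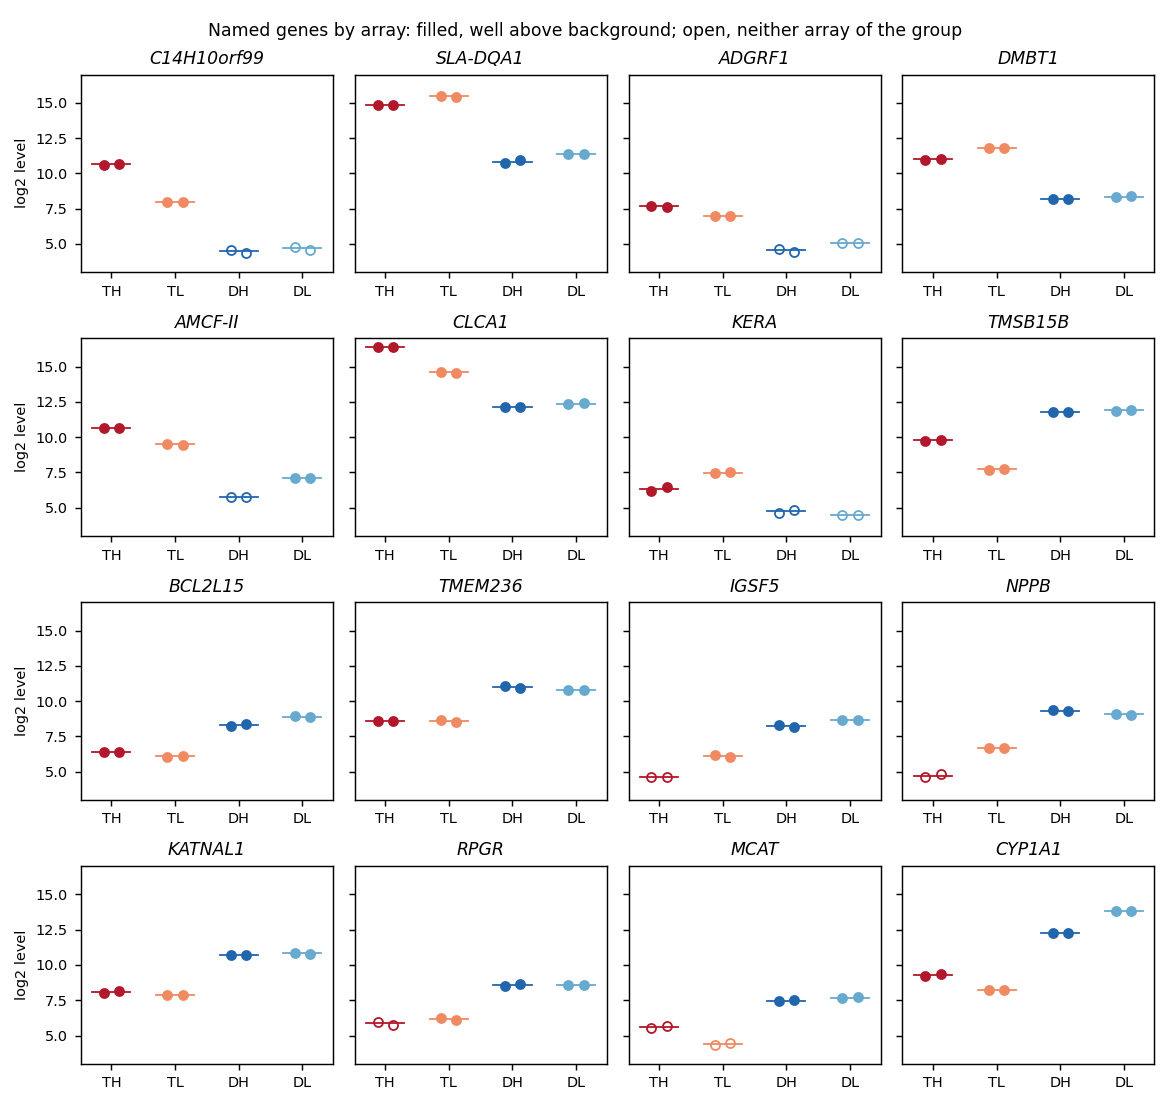
The 16 named genes, 1 panel each, with the log2 level of the 2 arrays of each group as points and their mean as a line. Open points mark groups in which neither array was well above background, such as the Duroc groups for C14H10orf99, ADGRF1 and KERA and the TH group for NPPB and IGSF5.

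The 41 probes without a symbol include the widest gaps. A_72_P112671 read 4.99 and 5.02 in TH, 3.55 and 3.94 in TL, 9.98 and 9.94 in DH and 8.47 and 8.42 in DL. No Tibetan array was well above background, so Duroc pigs were at least 22.7-fold higher at 3500 m and at least 9.58-fold at 40 m. A_72_P298169 was its counterpart on the Tibetan side, at 8.02 ± 0.03 in TH and 8.48 ± 0.05 in TL (mean ± SD, n = 2) and at most 4.69 on any Duroc array, none of them well above background. A_72_P224042 was at 11.97 ± 0.05 in TH and 10.54 ± 0.10 in TL, against 6.18 ± 0.28 in DH and 6.59 ± 0.13 in DL (mean ± SD, n = 2), and its contrast was at least 55.1-fold at 3500 m and 15.4-fold at 40 m.

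A group of 3 probes, A_72_P391018, A_72_P174311 and A_72_P027821, shares one target sequence and so gives repeated readings of 1 transcript. Their mean Tibetan minus Duroc differences were -3.84, -3.70 and -2.89 log2, and none passed the threshold for altitude or interaction. A_72_P423969 and A_72_P210082, both higher in Duroc pigs, each had a second probe to the same target, and these gave Tibetan minus Duroc differences of -2.02 and -1.87 log2 against -1.92 and -2.41. The second probe to the target of A_72_P057546 also separated the breeds, though by only -0.89 against -3.32. In all, 7 of the 57 probes had 10 other probes of the same gene or target outside the 57. Of the 10, 6 kept the breeds apart, in the same direction, and 4 did not. Over all tested probes the breeds did not overlap in 7.2% with Tibetan pigs higher and in 13.4% with Duroc pigs higher. Several of the 10 belong to SLA-DQA1, so they are not independent of each other.

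Most targets of the 57 probes are single EST or mRNA records or assembled EST clusters. Single EST or mRNA records were the targets of 30 (52.6%, against 40.9% of all tested probes), assembled EST clusters of 16 (28.1% against 30.5%), RefSeq transcripts of 6 (10.5% against 8.73%) and Ensembl transcripts of 3 (5.26% against 13.1%), and 2 had no target given. A gene symbol was found more often than among all tested probes, for 28.1% against 15.9%. All 16 symbols came from the study's own probe tables, held here in part, so this share depends on which probes those tables hold.

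Differences between the altitudes were called in these probes about as often as in the rest of the array. The altitude effect over both breeds passed FDR 0.0001 in 11 of the 57 (19.3%), beside 17.4% of all 34406 probes: 8 were higher at 3500 m (8.94% of all probes) and 3 lower (8.47%). Their median absolute effect was 0.38 log2, beside 0.34 over all probes. The criterion is not blind to altitude, since a large altitude difference within a breed narrows the gap that it measures. Besides CLCA1, C14H10orf99 and TMSB15B, the higher ones were A_72_P244902, A_72_P112671, A_72_P346538, A_72_P258407 and A_72_P308798, and the lower ones were DMBT1, NPPB and IGSF5. These directions are averages over the breeds. In Duroc pigs CLCA1, C14H10orf99 and TMSB15B had the opposite sign, at -0.25, -0.21 and -0.10 log2, as had NPPB at 0.26. None of these Duroc differences passed the threshold, and C14H10orf99 was not well above background there. With the processed signal scaled to its 75th percentile the split was 7 higher and 6 lower. With any 1 array left out, 0 of the 57 passed in limma, while 37 to 40 had an unadjusted p under 0.05 and all 11 kept an FDR under 0.05.

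Of the 11, 5 were well above background on all 8 arrays: CLCA1, DMBT1, TMSB15B, A_72_P346538 and A_72_P258407. A_72_P346538 read 8.99 and 8.93 in TH, 7.78 and 7.66 in TL, 11.55 and 11.47 in DH and 11.32 and 11.36 in DL. Its altitude effect over both breeds was 0.71 ± 0.04 (FDR 5.47e-05), to which Tibetan pigs contributed 1.24 ± 0.06 (FDR 1.47e-05) and Duroc pigs 0.17 ± 0.06 (FDR 0.0575), the latter not past the threshold. A_72_P258407 read 6.49 and 6.60 in TH, 6.01 and 6.05 in TL, 9.65 and 9.69 in DH and 8.84 and 8.78 in DL, an effect of 0.69 ± 0.04 (FDR 4.71e-05). A_72_P112671, above, had an effect of 1.39 ± 0.09 (FDR 7.03e-05), of which the Tibetan part lay below the well-above-background level.

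The breeds differed in their altitude response in 10 of the 57 probes (17.5%) by the interaction term, beside 21.1% of all probes. The difference was above 0, with TH minus TL above DH minus DL, in 7 (9.24% of all probes) and below 0 in 3 (11.9%). A value above 0 need not be a larger change in Tibetan pigs. CYP1A1 and AMCF-II changed more in Duroc pigs, in the opposite direction. All 5 of those among the probes higher in Tibetan pigs were above 0: C14H10orf99, AMCF-II, CLCA1, A_72_P234308 and A_72_P308798. For these the breed difference was wider at 3500 m than at 40 m. The median interaction was 0.13 over the 57, beside 0.19 over all probes. Scaling to the 75th percentile gave 5 above and 5 below 0, and subtracting the local background with an offset of 50 gave 11 and 8. Between 4 and 5 passed with any 1 array left out.

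On the Duroc side A_72_P244902 had the strongest opposite response. It read 5.20 and 5.42 in TH, 4.81 and 5.07 in TL, 9.45 and 9.55 in DH and 6.59 and 6.71 in DL. Tibetan arrays were all below the well-above-background level, and in Duroc pigs the signal was 7.23 times higher at 3500 m (2.85 ± 0.12, FDR 6.38e-05), with an interaction of -2.48 ± 0.17 (FDR 7.46e-05). A_72_P057546 also read higher in DH (8.80 and 8.82) than in DL (7.37 and 7.33), with an interaction of -1.83 ± 0.13 (FDR 9.95e-05), and again no Tibetan array was well above background. Only CLCA1, TMSB15B and CYP1A1 of the 10 were well above background on all 8 arrays.

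**Figure D4:**
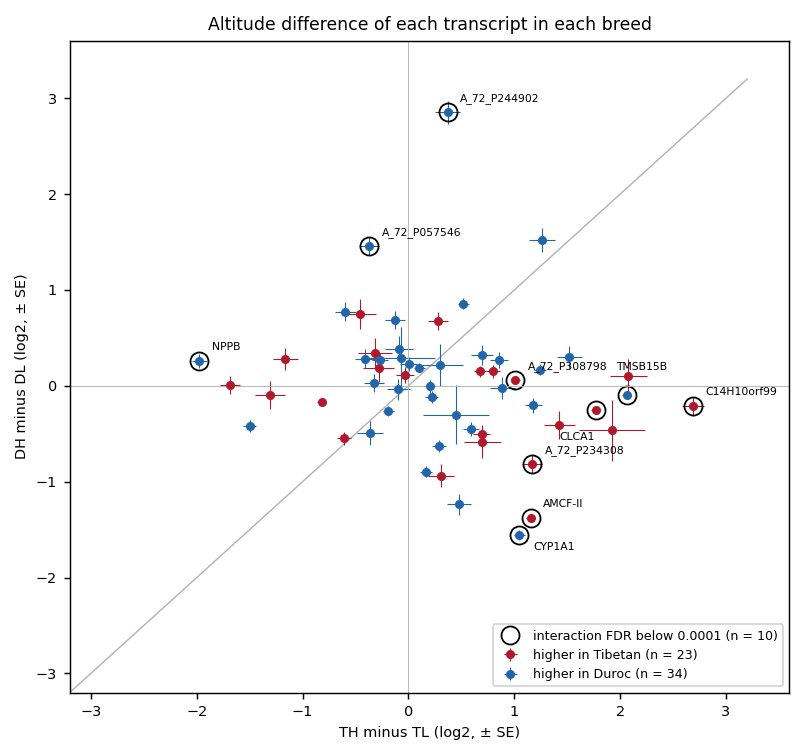
The difference between 3500 m and 40 m in Tibetan pigs (TH minus TL, x axis) and in Duroc pigs (DH minus DL, y axis) for the 57 probes, in log2 with SE bars. Rings mark the 10 probes whose interaction passed FDR 0.0001, the grey diagonal is where both breeds respond alike, and AMCF-II and CYP1A1 lie together at the lower right, higher at 3500 m in Tibetan and lower in Duroc pigs.

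Within breeds, 12 of the 57 (21.1%) passed for TH minus TL, beside 29.5% of all probes: 8 above 0 (14.9% of all) and 4 below (14.7%). The quantile-normalized processed signal gave 16 above and 4 below. The 12 were C14H10orf99, CLCA1, AMCF-II, A_72_P308798, TMSB15B, A_72_P346538, MCAT and CYP1A1 above 0, and DMBT1, A_72_P235667, IGSF5 and NPPB below it. A_72_P235667 read 6.81 and 6.94 in TH and 8.55 and 8.57 in TL, a difference of -1.68 ± 0.10 (FDR 2.84e-05), and at most 5.39 on any Duroc array. Without TL replicate 1, 2 of the 57 passed, and without TL replicate 2, 3 did.

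In Duroc pigs 3 of the 57 (5.26%) passed for DH minus DL, beside 3.07% of all probes: A_72_P244902 above 0 (1.92% of all) and CYP1A1 and AMCF-II below (1.16%). With the local background and an offset of 50, 4 were above and 2 below. With any 1 array left out 0 passed in limma, while 27 to 37 of the 57 had an unadjusted p under 0.05 and the 3 kept an FDR under 0.05. CYP1A1 and AMCF-II were thus the probes of the 57 that passed in both breeds, and they did so in opposite directions, although one is higher in Duroc and the other in Tibetan pigs. For each of them TH exceeded TL and DL exceeded DH. TH and DL shared a slide, so opposite altitude responses and the slide cannot be told apart.

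Of the 23 probes higher in Tibetan pigs, the highest group was TH for 14 and TL for 9, and the lowest was DH for 12 and DL for 11. Of the 34 higher in Duroc pigs, the highest was DH for 19 and DL for 15, and the lowest was TL for 21 and TH for 13. The difference between breed means was wider at 3500 m for 13 of the 23 and for 16 of the 34. These counts rest on group means without a test, and 15 of the 23 were not well above background on any Duroc array and 11 of the 34 on any Tibetan array, so many of the lowest groups, and of the widths at either altitude, were set by undetected signal.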

How the data were processed

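Total RNA from lung was hybridised to 8 single-colour porcine arrays, 2 per group, which limits precision to the spread of 2 arrays. The authors deposited scanner intensity files (Agilent Feature Extraction 10.7.3.1 per the file headers, 9.1 per the labels) and normalized log2 values, whose median was 7.40 on every array and whose rank order followed the processed signal. The deposited log2 values chose the 57 probes. All levels and tests used the median spot intensity, corrected with normexp (offset 0), quantile normalized and log2 transformed, with control and outlier spots left out and spots of a probe averaged. No spot was saturated. The deposited flag for well above background, another column of those files, kept 34406 of 43603 non-control probes.

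All 34406 probes were fitted with breed, altitude and the interaction term in limma 3.58.1 (R 4.3.3), with Benjamini-Hochberg FDR below 0.0001, and was tested on simulated data. Levels were summarised in Python and drawn with matplotlib.

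The members and the gene lists were chosen with earlier results of these data known. Genes were named from the probe tables of the study, which are held here in part, and otherwise through RefSeq accessions. By rule the text names every gene with several probes among the 57, the 12 symbols with the widest gap in each direction, 5 probes on each side of the criterion, the 5 strongest altitude effects and interactions in each direction, and every probe in a list; other symbols are given by role. Lists of complement, interferon-stimulated, immediate early, B, T, mast, endothelial, type I, macrophage, erythroid and adipocyte genes held no probe of the 57; mitochondrially encoded genes had no tested probe. Probe sequences were not used here.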

Additional observations from a re-analysis of the deposited data

Results flagged for a closer look

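The altitude difference differed between the breeds, by the interaction term of the two-way model at FDR 0.0001, in 10 of the 57 probes. The values, TH minus TL less DH minus DL in log2, were 2.90 for C14H10orf99, 2.53 for AMCF-II, 1.98 for A_72_P234308, 2.02 for CLCA1 and 0.95 for A_72_P308798 among the probes higher in Tibetan pigs. Among those higher in Duroc pigs they were 2.16 for TMSB15B, 2.61 for CYP1A1, -2.48 for A_72_P244902, -2.23 for NPPB and -1.83 for A_72_P057546. Because the interaction runs across the slides, breed response and slide cannot be told apart in these values. Groups of 2 arrays are too small for a test of outlying arrays.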

How the results depend on the processing

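The criterion itself gave 57 probes from the deposited values, 28 from the normalized scanner signal, 363 with a gap over 1 log2 and 17 with a gap over 3. Scaling the processed signal to its 75th percentile gave 56 probes, of which 46 were among the 57, with 29 higher in Tibetan and 27 in Duroc pigs instead of 23 and 34. Leaving out 1 array gave 59 to 76 probes. Leaving out both TL arrays, an alternative chosen after seeing the data, gave 369. By construction, leaving out arrays can only keep or widen a gap, and without TL the Tibetan side rests on TH alone. No other pair of arrays was left out for comparison. How much of the rise to 369 is particular to the TL arrays was therefore not tested.

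For altitude, 20 of the 57 passed with the local background and an offset of 50, 7 among probes well above background on all 8 arrays (17 of the 57 were tested), 6 with no filter on dim probes, 2 without moderation and 37 at FDR 0.05; leaving out 1 array gave 0 in each case. For the interaction the counts were 19, 7, 6, 4 and 41 in the same order, and 4 to 5 with 1 array left out. For Tibetan pigs the deposited log2 values gave 20, the quantile-normalized processed signal 20, the model without moderation 6 and FDR 0.05 gave 45, with 2 to 10 when 1 array was left out. For Duroc pigs the local background gave 6, the intensity trend 7, the model without moderation 0 (33 with an unadjusted p under 0.05) and FDR 0.05 gave 29, with 0 when 1 array was left out. The cause of these shifts was not tested. No called effect changed sign in any alternative.

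The replicate numbers did not pair the arrays, since correlations of the deviations of same-numbered arrays ran from -0.07 to 0.15. With the replicate block 1 probe passed for altitude, 6 for the interaction, 10 for Tibetan pigs and 0 for Duroc pigs (38 with an unadjusted p under 0.05). With the slide as a block the altitude count stayed at 11. Only 17 of the 57 were measured well above background on all 8 arrays, and differences below that level are bounds.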
